A study of Arabidopsis thaliana with 8 samples.

Results

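Plants move carbon as sucrose and can split it by either of 2 enzyme families. Sucrose synthases cleave sucrose with UDP, reversibly, to UDP-glucose and fructose, and UDP-glucose is the substrate for cellulose and callose. Invertases hydrolyse sucrose irreversibly to glucose and fructose, in the cell wall, the vacuole, or the cytosol and organelles. The 9 genes described here are the sucrose synthase genes SUS1 to SUS6, the vacuolar invertase genes BFRUCT3 and BFRUCT4, and the cell wall invertase gene cwINV1. They were chosen by locus, and all 9 were among the 25102 genes tested.

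Transcripts were measured on Agilent 1-colour arrays in leaves of Arabidopsis thaliana plants grown without treatment for 54 days. All samples shared 3 days of stratification at 7 °C, then 20 days with 8 h of light and 34 days with 12 h. The growth temperature was 22 °C and the night temperature 18 °C, with 60 µmol of light and 60% humidity. Of 8 arrays, 4 were from plants of a 35S::Rap2.9-GFP transgenic line in the Col-0 background, and 4 were from wild-type Col-0 plants, the standard laboratory accession. In the transgene the constitutive 35S promoter of a plant virus drives a fusion of green fluorescent protein with RAP2.9, a DREB-type AP2/ERF transcription factor. The series text calls the samples biological replicates, while pooling of leaves from several plants and the number of transgenic lines are not stated.

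Levels are given as the log2 signal over the 75th percentile of the same array, so that 0 is the signal of that percentile, and changes are 35S::Rap2.9-GFP minus Col-0. Levels of different probes cannot be set against each other. Probes entered the fit when 4 or more of the 8 arrays had them well above background, each gene took the value of the brightest such probe, and the threshold was a Benjamini-Hochberg adjusted p of 0.05 over all genes in limma. Unless another source is named, an adjusted p is of this kind.

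The brighter RAP2.9 probe read 5.69, 6.14, 5.90 and 5.58 in 35S::Rap2.9-GFP leaves, against 1.39, 1.87, 1.77 and 1.72 in Col-0 leaves, and the other RAP2.9 probe read lower in every 35S::Rap2.9-GFP array (change -1.77). An array had 72.5% to 84.3% of its probes well above background, the most being on 35S::Rap2.9-GFP replicate 1, and a 75th percentile intensity of 1699 to 2574. There were 2 slides, and both held 2 arrays per genotype. Among marker genes of leaf mesophyll the photosynthesis genes RBCS1A and RCA were high, at 7.37 and 6.31 in 35S::Rap2.9-GFP leaves and 7.46 and 6.28 in Col-0 leaves. None of 3 seed storage markers was tested, since none passed the filter on dim probes. Higher calls made up 53.7% of all calls, and 39.0% with median scaling.

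Of the 9 genes, by their brightest probes, 3 fell (SUS1, SUS2 and SUS4), 2 rose (SUS6 and BFRUCT3), and SUS3, SUS5, BFRUCT4 and cwINV1 did not pass. Among all genes tested, 34.6% passed in either direction, 18.6% as higher and 16.0% as lower. The genotypes were fully separate on the arrays for the 5 genes that passed and overlapped for the other 4, and 36.7% of all genes were fully separate. Of 16 tested probes of the 9 genes, 5 rose, 4 fell and 7 did not pass, where 34.0% of all probes passed. The median change of the 9 was 0.23, and that of all genes tested was 0.03. In bulk leaf RNA, fewer cells of a type and less RNA per cell cannot be told apart.

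**Figure D1:**
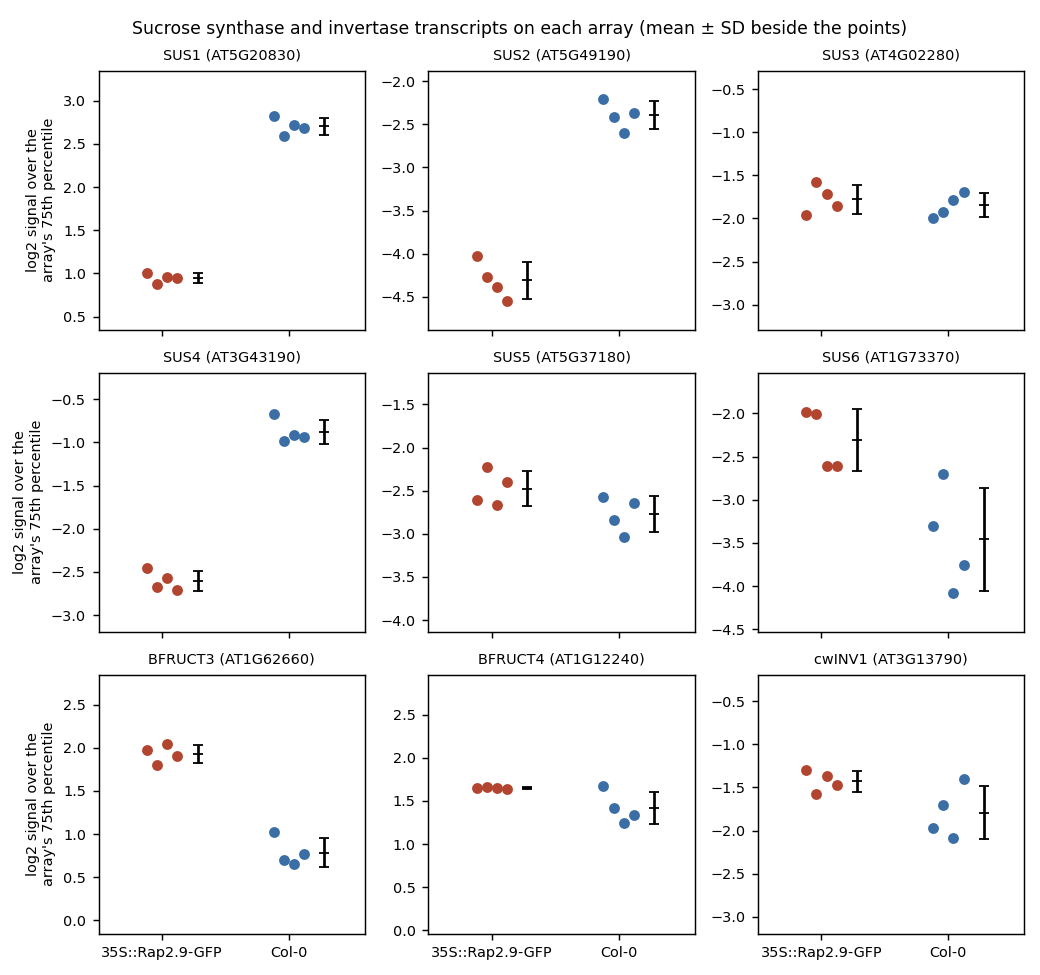
Log2 signal, relative to the 75th percentile of each array, for the 9 genes, 35S::Rap2.9-GFP arrays at left (red) and Col-0 arrays at right (blue), 1 point an array, with mean ± SD beside the points (n = 4); each panel spans the same log2 range at its own level. SUS1, SUS2 and SUS4 lie lower on every 35S::Rap2.9-GFP array and SUS6 and BFRUCT3 higher, while the genotypes overlap for the other 4 genes.

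SUS1 (AT5G20830), a sucrose synthase gene of vegetative tissue that low oxygen induces, read 1.00, 0.87, 0.96 and 0.95 on the 4 arrays of 35S::Rap2.9-GFP leaves, against 2.83, 2.59, 2.71 and 2.68 on those of Col-0 leaves. All 4 arrays of the transgenic line were low, and the gap to the lowest Col-0 array was far wider than either group's own range. The means were 0.95 ± 0.06 and 2.70 ± 0.10 (SD, n = 4 each), a 3.38-fold fall with a log2 change of -1.76 ± 0.06 (SE, limma adjusted p = 6.38e-06). By p this placed SUS1 at rank 31 of 25102 genes, and by size it was the 147th lowest change. A dimmer SUS1 probe read -5.43 ± 0.33 in 35S::Rap2.9-GFP leaves and -3.32 ± 0.15 in Col-0 leaves (SD, n = 4 each), a change of -2.11 ± 0.17 (SE, limma adjusted p over all probes 0.000144). Thus each SUS1 probe fell, and neither overlapped between the genotypes.

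SUS4 (AT3G43190), the closest relative of SUS1 and also induced by low oxygen, was represented by a probe that read -2.45, -2.67, -2.58 and -2.71 in 35S::Rap2.9-GFP leaves. In Col-0 leaves it read -0.67, -0.98, -0.91 and -0.94. Again every array of the transgenic line lay below every Col-0 array. The fall was 3.31-fold, a log2 change of -1.73 ± 0.09 (SE, n = 4 each, limma adjusted p = 2.96e-05), the 160th lowest change of all genes. The array holds 3 more SUS4 probes, none of which was tested: 2 were not well above background on any array, and the third was above it on 2 arrays of 35S::Rap2.9-GFP leaves and 0 of Col-0 leaves. The SUS4 value therefore rests on 1 probe, and since probe sequences were not used here, signal shared between SUS1 and SUS4 transcripts cannot be told apart.

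Within arrays the SUS1 signal minus the SUS4 signal was 3.46 to 3.66 in 35S::Rap2.9-GFP leaves and 3.50 to 3.63 in Col-0 leaves. The falls of these paralogs were thus of similar size. Their changes differed by -0.028 ± 0.052 (SE, n = 4 each, two-sided exact permutation test over the 8 arrays, p = 0.657), which does not show that they are equal. With quantile normalization the difference was 0.036, and averaging the tested probes of each gene gave -0.20, with an unadjusted exact permutation p of 0.0286. That mean takes in the dimmer SUS1 probe, which had the larger fall.

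SUS2 (AT5G49190), known chiefly as a gene of maturing seeds, gave 2 probes that disagreed. The brighter probe read -4.03, -4.27, -4.38 and -4.55 in 35S::Rap2.9-GFP leaves, against -2.20, -2.41, -2.60 and -2.36 in Col-0 leaves. The other read -4.42, -4.78, -4.54 and -4.61 in 35S::Rap2.9-GFP leaves, against -4.92, -4.78, -4.71 and -4.70 in Col-0 leaves. So the first separated the genotypes fully and the second did not separate them. The brighter probe fell 3.76-fold (log2 change -1.91 ± 0.13, SE, n = 4 each, limma adjusted p = 7.77e-05), which made SUS2 the 119th lowest change of all genes. The other changed by 0.19 ± 0.09 (SE, limma adjusted p over all probes 0.138). With the mean of these probes the SUS2 change was -0.86 (adjusted p = 0.000381), and with normexp background correction of the brighter probe it was -1.38 (adjusted p = 0.0298). Whether SUS2 fell at all thus depends on the probe read. Probe sequences were not used here, so signal from SUS1 or SUS4 transcripts on the falling SUS2 probe cannot be told apart from SUS2 signal.

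SUS3 (AT4G02280), a sucrose synthase gene of seeds and guard cells that is induced by dehydration, did not differ beyond the spread between arrays. It read -1.96, -1.58, -1.71 and -1.86 in 35S::Rap2.9-GFP leaves, against -2.00, -1.93, -1.78 and -1.69 in Col-0 leaves, a full overlap. The log2 change was 0.072 (95% interval -0.17 to 0.32, limma adjusted p = 0.628), and the other SUS3 probe changed by 0.008 ± 0.095 (SE, limma adjusted p over all probes 0.957). The direction of the SUS3 value reversed with median scaling and with normexp background correction. The change of SUS2 differed from that of SUS3 by -1.98 ± 0.20 (SE, n = 4 each) with the brighter SUS2 probe. Its exact permutation p was 0.0286, the smallest that the 70 splits of the arrays can give, and it was 0.0571 adjusted over the 4 paralog pairs compared, which does not pass. The difference between SUS2 and SUS3 was -0.90 with the mean of probes and -1.28 with normexp.

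SUS5 (AT5G37180) and SUS6 (AT1G73370) form the clade of sucrose synthases found in sieve elements, the conducting cells of the phloem. SUS6 read -1.98, -2.01, -2.61 and -2.61 in 35S::Rap2.9-GFP leaves and -3.30, -2.71, -4.08 and -3.75 in Col-0 leaves. The groups did not overlap, but Col-0 replicate 2 lay just under the lowest arrays of the transgenic line, and the Col-0 arrays spread widely (SD 0.59). The rise was 2.23-fold, a log2 change of 1.16 ± 0.31 (SE, n = 4 each, limma adjusted p = 0.0254), from the only SUS6 probe. The SUS6 call did not hold in 4 of 8 fits on 7 arrays, those without 35S::Rap2.9-GFP replicate 1 or 2 or Col-0 replicate 3 or 4 (adjusted p up to 0.0688), and with normexp (0.64, adjusted p = 0.36).

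For SUS5 the brighter probe read -2.61, -2.23, -2.66 and -2.40 in 35S::Rap2.9-GFP leaves, against -2.58, -2.84, -3.04 and -2.64 in Col-0 leaves. These overlap, and the log2 change of 0.30 did not pass (95% interval -0.02 to 0.62, limma adjusted p = 0.125). The dimmer SUS5 probe read -3.85, -4.47, -5.09 and -4.94 in 35S::Rap2.9-GFP leaves and -5.50, -5.62, -5.95 and -6.03 in Col-0 leaves, with no overlap. It rose by 1.19 ± 0.27 (SE, n = 4 each, limma adjusted p over all probes 0.0137), and with the mean of both probes SUS5 passed at 0.74 (adjusted p = 0.0114). The changes of SUS5 and SUS6 differed by -0.86 ± 0.34 (SE, n = 4 each, exact permutation p = 0.0857, 0.114 adjusted over the 4 pairs), which does not pass, and by -0.41 with the mean of probes and -0.49 with normexp.

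For the marker counts, the shares over all genes tested were 18.6% higher and 16.0% lower. Of 8 phloem markers, 2 rose and 3 fell. The risers were the sieve element genes SEOR1, for a filament protein, by 0.83 ± 0.15 (SE), and CALS7, for the callose synthase of sieve plates, by 0.71 ± 0.12 (SE). The sugar exporters SWEET11 and SWEET12 changed by -0.61 and -0.31, the phloem lectin gene PP2-A1 by -0.23, and the companion cell gene SUC2 by -0.19 (adjusted p = 0.138). Dimmer SUC2 probes changed by -0.39, which passed (adjusted p over all probes 0.0155), and -0.23, which did not (0.0652). The other PP2-A1 probe changed by -0.17 and did not pass (limma adjusted p over all probes 0.072). The mean level of the 8 markers was 0.95 to 1.09 in 35S::Rap2.9-GFP leaves and 0.99 to 1.07 in Col-0 leaves, so it overlapped. All 4 xylem markers rose, with mean levels of -2.62 to -2.08 in 35S::Rap2.9-GFP leaves and -4.18 to -2.88 in Col-0 leaves. Taken alone, the xylem marker XCP1 overlapped between the genotypes. All 3 guard cell markers rose too (-0.50 to -0.38 in 35S::Rap2.9-GFP leaves, -1.11 to -0.73 in Col-0 leaves), beside 1 of 4 mesophyll markers (5.82 to 6.22 and 5.65 to 5.87).

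Both root markers rose, with mean levels of -2.81 to -1.77 in 35S::Rap2.9-GFP leaves and -4.89 to -3.78 in Col-0 leaves, as did both tested flower markers (-3.73 to -2.92 and -5.32 to -4.20). Taken alone, the root marker NRT2.1 overlapped between the genotypes. Both senescence markers were also higher, at -2.50 to 0.61 in 35S::Rap2.9-GFP leaves and -4.99 to -3.64 in Col-0 leaves, though SAG12 was well above background on 1 of 4 Col-0 arrays. The top of the 35S::Rap2.9-GFP range is replicate 2 alone, where SAG12 read -0.69, against -4.90, -5.19 and -5.67 on the other arrays of that line. The other SAG12 probe changed by 3.02 and did not pass (adjusted p over all probes 0.133). The part of cell type shares or leaf age in the values of the 9 genes was not tested.

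**Figure D2:**
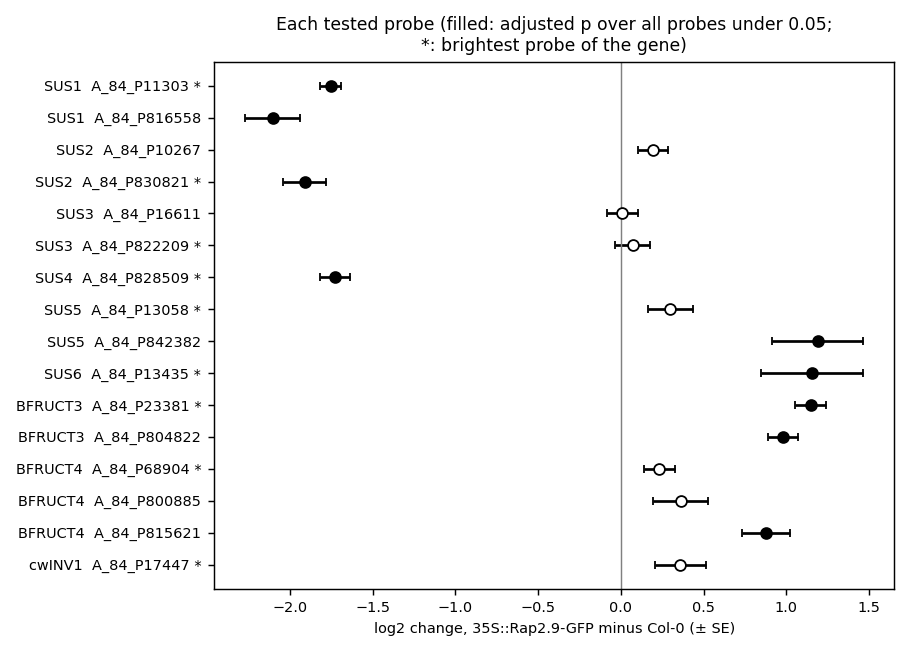
Log2 change (35S::Rap2.9-GFP minus Col-0, ± SE, n = 4 each) of the 16 tested probes of the 9 genes, filled where the adjusted p over all probes passed and with a star at the brightest probe of each gene. The probes of SUS1 all passed as lower and those of BFRUCT3 all passed as higher. Those of SUS2, SUS5 and BFRUCT4 divide into probes that passed and probes that did not.

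The vacuolar invertases split sucrose inside the vacuole, and sugar contents were not measured here. BFRUCT3 (AT1G62660) read 1.98, 1.80, 2.04 and 1.90 in 35S::Rap2.9-GFP leaves, against 1.02, 0.70, 0.65 and 0.77 in Col-0 leaves. Every array of the transgenic line was high, and the lowest of them stood well over the highest Col-0 array. The rise was 2.21-fold, a log2 change of 1.15 ± 0.10 (SE, n = 4 each, limma adjusted p = 0.000194). The other BFRUCT3 probe rose by 0.98 ± 0.09 (SE, limma adjusted p over all probes 0.000286), so the BFRUCT3 probes gave like values.

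BFRUCT4 (AT1G12240), the other vacuolar invertase gene, had a brightest probe that read 1.65, 1.67, 1.65 and 1.63 in 35S::Rap2.9-GFP leaves, against 1.68, 1.41, 1.25 and 1.34 in Col-0 leaves. The arrays of the transgenic line were close together, and Col-0 replicate 1 was the highest of all 8. The change of 0.23 did not pass (95% interval 0.02 to 0.45, limma adjusted p = 0.0862). A second BFRUCT4 probe changed by 0.36 ± 0.17 (SE, limma adjusted p over all probes 0.132), and the dimmest rose by 0.88 ± 0.14 (SE, limma adjusted p over all probes 0.00333) without overlap. BFRUCT4 passed with the mean of its probes (0.49, adjusted p = 0.0153), without Col-0 replicate 1 (0.32, adjusted p = 0.0084) and with the trended, robust variance model (adjusted p = 0.0469).

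The signal of BFRUCT3 minus that of BFRUCT4 was 0.14 to 0.39 within the arrays of 35S::Rap2.9-GFP leaves and -0.72 to -0.57 within those of Col-0 leaves, on the brightest probes, with no overlap. Since levels of different probes cannot be set against each other, only the shift between genotypes is read, not the sign. The change of BFRUCT3 exceeded that of BFRUCT4 by 0.91 ± 0.06 (SE, n = 4 each). The exact permutation p of 0.0286 was the smallest possible, and 0.0571 adjusted over the 4 pairs, which does not pass. With the mean of probes the difference between BFRUCT3 and BFRUCT4 was 0.57.

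cwINV1 (AT3G13790), the main cell wall invertase gene of leaves, whose enzyme splits sucrose outside the cell, had 1 probe. It read -1.30, -1.58, -1.37 and -1.48 in 35S::Rap2.9-GFP leaves and -1.97, -1.71, -2.09 and -1.40 in Col-0 leaves. Col-0 replicate 4 lay among the arrays of the transgenic line, and the other Col-0 arrays were lower. The cwINV1 change was 0.36 (95% interval 0.01 to 0.71, limma adjusted p = 0.105). It passed without that replicate (0.49, adjusted p = 0.0237) and with slide as a block (adjusted p = 0.0333).

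The slides gave the same direction for 8 of the 9 genes. Within slide 1 and slide 2, SUS1 changed by -1.86 and -1.65, SUS2 by -2.01 and -1.82, and SUS4 by -1.90 and -1.55. SUS6 changed by 1.38 and 0.93 and BFRUCT3 by 1.02 and 1.27. SUS3 was the exception, at 0.17 and -0.03, while SUS5, BFRUCT4 and cwINV1 were positive on each slide at 0.10 to 0.50. No test was made within slides, which hold 2 arrays of each genotype. Leaving out each array in turn, SUS1 changed by -1.79 to -1.71, SUS2 by -2.01 to -1.83 and SUS4 by -1.78 to -1.66, by their brightest probes. These and BFRUCT3 passed every time.

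**Figure D3:**
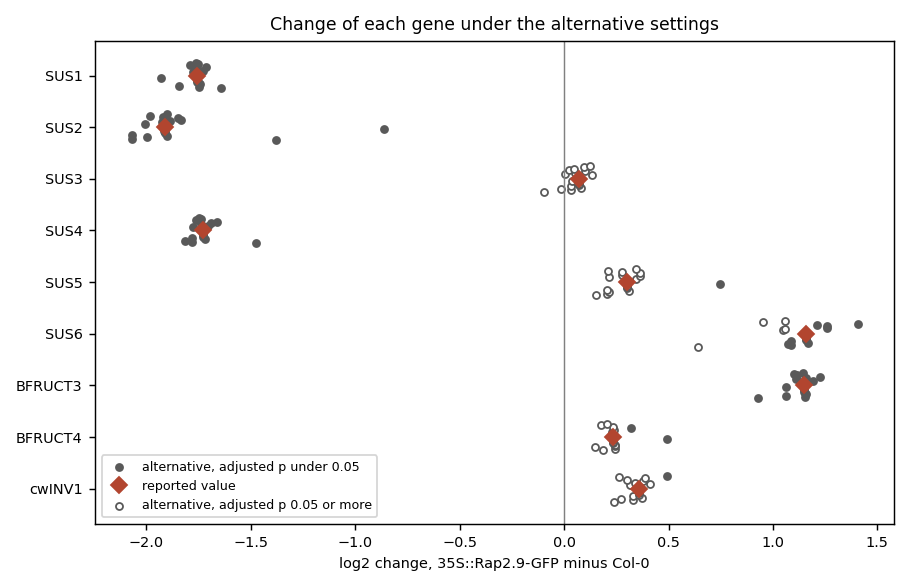
Log2 change (35S::Rap2.9-GFP minus Col-0) of the 9 genes as reported (red diamonds) and under 20 alternative settings (circles, filled where the adjusted p passed). SUS1, SUS2, SUS4 and BFRUCT3 passed under all 20, SUS6 under 15, BFRUCT4 under 3, cwINV1 under 2, SUS5 under 1 and SUS3 under 0. The SUS2 point nearest to 0 is the mean of its probes at -0.86, and no setting reads the dimmer SUS2 probe alone.

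Other genes of sucrose use were followed as 9 lists with 67 entries. For each list count below, the shares over all genes tested were 18.6% higher and 16.0% lower. Neutral and alkaline invertases, which act in the cytosol, plastids and mitochondria, were higher in 6 of 8 tested and lower in 0, with a list median of 0.46. A/N-InvC (AT3G06500), a mitochondrial form, averaged 1.96 ± 0.14 in 35S::Rap2.9-GFP leaves and 0.64 ± 0.12 in Col-0 leaves (SD, n = 4 each), without overlap, and rose 2.48-fold (log2 change 1.31 ± 0.09, SE, limma adjusted p = 8.31e-05). A/N-InvB (AT4G34860) rose by 1.06 ± 0.18 (SE) and A/N-InvF (AT1G72000) by 0.82 ± 0.12 (SE), and with normexp these calls were lost. Thus several cytosolic or organellar invertase transcripts were higher in the reported fit beside the rise of BFRUCT3. The other passing genes of this list were not run under the alternative settings.

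Of 5 other genes of the cell wall invertase family 3 were tested, with CWINV2 and CWINV4 left out because no probe passed the filter on dim probes. The member cwINV6 (AT5G11920) rose by 0.86 ± 0.16 (SE), and AT1G55120, also called cwINV3, fell by 0.40 ± 0.09 (SE), a call lost with normexp. These 2 are known from biochemical work as fructan exohydrolases rather than invertases. CWINV5 changed by 0.47 (adjusted p = 0.112), with 3 of 4 arrays well above background in each genotype, and its sign turned with quantile normalization, the deposited value table and normexp. Without Col-0 replicate 3, CWINV5 passed as higher (0.64, adjusted p = 0.0318).

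Inhibitor proteins bind cell wall and vacuolar invertases. C/VIF2 (AT5G64620) fell by 0.37 ± 0.08 (SE, limma adjusted p = 0.00981), a call also lost with normexp. C/VIF1 (AT1G47960), an inhibitor of vacuolar invertase, changed by 0.094 (adjusted p = 0.415), whereas its dimmer probe fell by 0.71 (adjusted p over all probes 0.00623). With the mean of its probes C/VIF1 passed as lower (-0.31, adjusted p = 0.0481).

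Genes of sucrose synthesis went both ways, with 4 of 9 higher, 1 lower and a list median of 0.33. ATSPS4F (AT4G10120), a leaf sucrose phosphate synthase gene, fell by 1.05 ± 0.08 (SE, limma adjusted p = 0.000116). SPS3F (AT1G04920) rose by 1.01 ± 0.21 (SE), a call lost with normexp, and the sucrose phosphatase gene AT3G52340 by 0.89 ± 0.11 (SE). UGP1 and UGP2, whose enzymes interconvert UDP-glucose and glucose 1-phosphate, rose by 0.31 ± 0.07 and 0.39 ± 0.06 (SE). The other UGP2 probe changed by -0.04 (adjusted p over all probes 0.726), and UGP1 did not pass with normexp or median scaling.

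For hexose phosphorylation, which takes up the products of either cleavage route, 1 of 9 tested genes was higher and 3 were lower. The fructokinase gene AT1G66430 rose by 0.53 ± 0.11 (SE), the fructokinase gene AT2G31390 fell by 0.56 ± 0.06 (SE) and the hexokinase-like gene HKL1 fell by 0.32 ± 0.06 (SE). Among sucrose transporter genes SUT2 (AT2G02860) fell by 0.53 ± 0.06 (SE), and the other 4 tested did not pass by their brightest probes.

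Among 8 hexose transporter genes tested, 4 were higher and 1 lower. ERDL6 (AT1G75220), a glucose exporter of the vacuole, rose by 0.83 ± 0.08 (SE, limma adjusted p = 0.000289), while its other probes changed by 0.22 and 0.32 and did not pass. STP14 at 0.41 and STP13 at 0.37, sugar carriers of the STP family, passed weakly. On 7 arrays the STP13 call held in 1 fit of 8, and STP14 was at -0.00099 with the mean of its probes. The STP14 call was also lost with normexp and without 35S::Rap2.9-GFP replicate 4 or Col-0 replicate 3.

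Since SUS1 and SUS4 belong to the genes that low oxygen induces in Arabidopsis, 10 core hypoxia genes were listed. The fit held 8 of them, with 3 higher, 1 lower and a median of -0.055. PDC1 (AT4G33070), for the fermentation enzyme pyruvate decarboxylase, read -2.38, -2.57, -2.25 and -2.51 in 35S::Rap2.9-GFP leaves, against -4.88, -4.83, -5.11 and -5.62 in Col-0 leaves, a 6.42-fold rise, and this call was lost with normexp. The haemoglobin gene HB1 (AT2G16060) rose by 1.34 ± 0.19 (SE), and the regulator HRE1 (AT1G72360) fell by 0.69 ± 0.09 (SE). SUS1 and SUS4 thus moved opposite to the 3 genes called higher, PDC1 and HB1 among them. The falls of SUS1 and SUS4 shared the direction of HRE1, the only listed gene called lower.

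**Figure D4:**
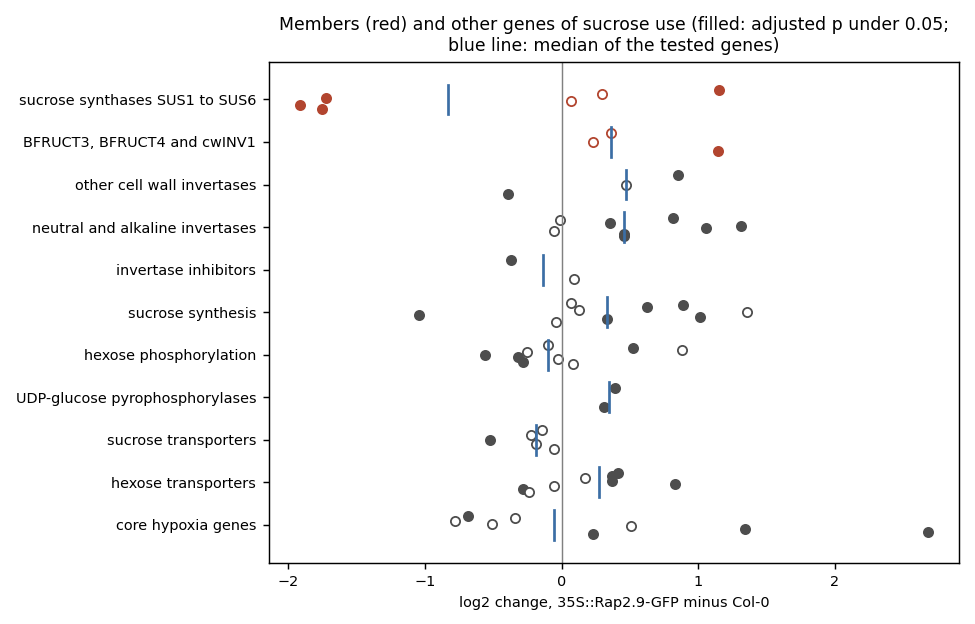
Log2 change (35S::Rap2.9-GFP minus Col-0) of the tested genes in each list, the 9 genes described here in red, filled where the adjusted p passed, with the median of each list as a blue line. SUS1, SUS2 and SUS4 have the lowest values shown, and PDC1 at 2.68 the highest.

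By the fixed rule, likeness of pattern was sought for SUS2, the passing gene with the largest change. This search and the added ones below covered only tested genes with a symbol in the gene list. Genes known by locus name alone were not searched. Over the 8 arrays its brighter probe was most like GH9B5, a glycosyl hydrolase gene (Pearson's r = 0.998), CESA6, a cellulose synthase gene of primary walls (r = 0.996), and FLA2, for a fasciclin-like arabinogalactan protein (r = 0.996). The nearest to SUS1, a search added after the values were seen, were CESA5 (r = 0.998), FLA13 (r = 0.998) and TET3 (r = 0.998). All 6 of these genes were lower in 35S::Rap2.9-GFP leaves, by -2.60 for GH9B5 through to -0.75 for TET3. The same added search gave AT2G26760, APX5 and GLP10 for SUS6 and ERDL6, TDT and MAMI for BFRUCT3 (r of 0.994 to 0.996). These were all higher in 35S::Rap2.9-GFP leaves. Such values of r come mostly from the step between genotypes that a gene shares with its match, and they are given as a description.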

How the data were processed

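Leaf RNA of 4 samples of each genotype, 200 ng per array, was labelled with Cy3, per the labels' protocols. The deposited scanner files give spot intensity on array design 021169, read with Feature Extraction 11.5.1.1, which subtracted background and detrended each array alone, with no scaling between arrays, per the file headers. A second set of values, which the authors deposited for the same arrays, is on a log2 scale, with scaling not stated. It is centred on each probe's median (the largest absolute probe median was 9.55e-07). Its columns had medians of -0.0144, -0.0042, -0.0022 and 0.0019 for 35S::Rap2.9-GFP replicates 1 to 4 and 0.0015, 0.0116, -0.0036 and 0.0041 for Col-0 replicates 1 to 4. Over all matched probes, dim ones included, it was correlated with the scanner values centred in the same way. The correlation was 0.66 for 35S::Rap2.9-GFP replicate 1, 0.85 for Col-0 replicate 4 and 0.91 to 0.97 for the other arrays. Changes from this set lay close to those with quantile normalization (SUS2 -2.07 with each, 8886 and 8911 calls over all genes). Among the alternatives these settings therefore nearly repeat each other.

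From the intensities, 1417 control spots of 45220 and 25 to 63 outlier spots per array were left out, spots of a probe were averaged, and log2 values over the array's 75th percentile were tested two-sided with lmFit and eBayes of limma 3.58.1 (R 4.3.3, files read with version 1.17.8 of data.table). Of 43603 probes, 33160 were tested. Probes were named through RefSeq transcripts in a list for the assembly TAIR10.1, with 34348 matched and 9255 not. The array header names TAIR10, so no positions are given. BFRUCT3 and cwINV1 are usual names of loci that it lists as AT1G62660 and ATBFRUCT1. The fit was tested on simulated data. The number of arrays limits the precision.

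The genes and lists were chosen with earlier results of these data known. Named are the 9 genes, RAP2.9, and from each list up to 3 passing genes with the largest change, or every tested gene of lists of 5 or fewer; phloem, xylem and mesophyll markers and the second probes were named beside results they touch. Promoter motifs were not analysed here.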

Additional observations from a re-analysis of the deposited data

Results flagged for a closer look

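Of 82 sets of 4 arrays checked for an array far from the other 3, 1 was found, and chance alone gives about 1 in 20. The invertase inhibitor gene C/VIF1 read 0.87 on Col-0 replicate 1 and 1.03 to 1.06 on the other Col-0 arrays, a gap of 0.866 of the range, over the critical value of Dixon's test. C/VIF1 did not pass the threshold with its brightest probe.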

How the results depend on the processing

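SUS1, SUS2, SUS4 and BFRUCT3 kept their direction and their call under all 20 alternatives. For SUS2 these settings read the brighter probe, alone or in the mean of probes. None read the other SUS2 probe alone (0.19, adjusted p over all probes 0.138), so they do not settle whether SUS2 fell. The normexp correction, run on median spot signals and chosen after the data were seen because the planned mean signals were not used here, left 1 of the 9 genes higher and 3 lower. Over all genes it gave 2782 calls, 1286 higher and 1496 lower, against 8685, 4666 and 4019. Averaging the probes of each gene, 4 of the 9 were higher. Leaving out 1 array gave 1 to 3 of the 9 higher and 3 lower each time, and 6577 to 8348 calls over all genes, 3533 to 4352 higher and 3019 to 3996 lower. The count of higher genes was 1 without 35S::Rap2.9-GFP replicate 1 or 2 or Col-0 replicate 3.

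The sign turned for SUS3 with normexp (-0.095) and median scaling (-0.014), and for CWINV5 with normexp (-0.16), quantile normalization (-0.12) and the deposited value table (-0.12). With the mean of probes it turned for C/VIF1 (-0.31) and STP14 (-0.00099). The difference between SUS1 and SUS4 was 0.036 with quantile normalization and -0.20 with the mean of probes. With the mean of probes its exact permutation p was 0.0286 before adjustment, as were those of SUS2 and SUS3 and of BFRUCT3 and BFRUCT4. The causes were not tested. Without 1 array the difference between SUS1 and SUS4 was -0.065 to 0.0039 and that of SUS2 and SUS3 -2.14 to -1.87. That of SUS5 and SUS6 was -1.13 to -0.70 (unadjusted exact permutation p of 0.0286 without Col-0 replicate 2) and that of BFRUCT3 and BFRUCT4 0.88 to 0.96.

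Replicate numbers are shared by the genotypes, but deviations of same-numbered arrays correlated at 0.16, -0.10, -0.32 and 0.28, so they were not taken to pair the samples. With the replicate number as a block, 6968 genes passed, with 2 of the 9 genes higher and 3 lower. The block ended the calls of AT1G55120, also called cwINV3 (adjusted p = 0.0526), UGP1 (0.0565) and STP13 (0.0563), brought CWINV5 past the threshold (0.0333) and changed no other call of a gene named from the lists or of the 9 genes. For probes near background, signal over background limits what can be called.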
